A study of Mus musculus with 12 samples.

Results

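The transcripts of 8 RNA-binding proteins that have been linked to N6-methyladenosine (m6A) outside the YTH and Igf2bp reader families were followed across RNA immunoprecipitation sequencing (RIP-seq) libraries from mouse cortex and retina. They are Hnrnpa2b1, Hnrnpc, Rbmx, Fmr1, Fxr1, Fxr2, Prrc2a and Elavl1, listed by name and found by Ensembl identifier, 8 of the 52550 genes in the count table. These 8 and the lists of related genes below were chosen with earlier results of these data known. Shares of a list called, set beside shares of all genes, are therefore descriptions and not tests of the list. All 8 were among the 18458 genes that passed the filter on low counts. All mice were wild-type C57BL/6, and tissue was either cortex at embryonic day 12.5 or retina at postnatal day 0, so that tissue and age differ together. RNA immunoprecipitates (IPs) were made per tissue with Proteintech antibodies to Ythdf1 or to Ythdf2. Together with the input RNA, each was sequenced as 2 libraries, which gave 6 groups and 12 libraries. An IP with an unrelated antibody was not analysed here, so each IP was set against the input of its tissue. The labels do not say whether the 2 libraries of a group came from separate animals, and p-values then measure only the spread between these libraries.

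m6A is a methyl mark on adenosine, laid down in mRNA mostly at a short motif with the core GGACU. Ythdf1 and Ythdf2 bind it directly through their YTH domain. The 8 proteins meet the mark in other ways, and here it is their own mRNAs that were measured in the YTH protein IPs. HNRNPC and RBMX bind RNA stretches that become accessible when m6A loosens the local fold, HNRNPA2B1 is a nuclear protein tied to m6A in microRNA processing and splicing, and the FMRP family (Fmr1, Fxr1, Fxr2) controls translation, transport and stability of neuronal mRNAs. Loss of FMRP causes fragile X syndrome. PRRC2A binds methylated RNA and was studied in the oligodendrocyte lineage, while ELAVL1 (HuR) binds AU-rich elements and stabilises mRNA.

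Library totals ran from 19530226 to 40515980 counts and those in protein-coding genes from 1676910 to 13621485. The library labelled cortex input replicate 1 stood apart: mitochondrial ribosomal RNA took 71.0% of its counts and protein-coding genes 4.65%. The 2 cortex inputs had a Spearman correlation of 0.585 over the latter, against 0.908 to 0.978 between the libraries of the other groups. Markers of cortical progenitors summed to 281 protein-coding CPM (counts scaled to the total in protein-coding genes) there and 5616 in replicate 2, while markers of mature brain summed to 13113 and 116, and Emx1 and Hes5 were at 0. This profile goes against its label, and calls on the 8 transcripts are given with all 12 libraries and without this one, the deviant cortex input. The DESeq2 fits, the transcript features and the FPKM levels are given with all 12 only. In the retina, 10 of 10 retina markers were detected in every library.

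The GGACT pentamer was sought on the transcript strand of the longest coding transcript of each gene, to show where the mark's core motif lies in these mRNAs (GENCODE M21 transcripts, GRCm38, not RefSeq; DNA letters). The 25-base windows around the site nearest the stop codon are printed 5′ to 3′ with the motif in capitals, to show the sequence around the motif in the 7 transcripts that hold it. Hnrnpa2b1 (chr6:51460932-51469894, minus strand) has none to show, in any of its 6 annotated coding transcripts.
Hnrnpc (3′ UTR, chr14:52074627-52074651, minus strand): cacgtgagtgGGACTgttacaacac
Rbmx (coding, chrX:57388102-57388126, minus strand): gtcgggatcgGGACTattcagatca
Fmr1 (3′ UTR, chrX:68715975-68715999, plus strand): ttcctgaattGGACTatataactca
Fxr1 (coding, chr3:34064264-34064288, plus strand): tctgatggatGGACTgactgaatct
Fxr2 (coding, chr11:69652028-69652052, plus strand): cgtggtaaccGGACTgatgggtcca
Prrc2a (coding, chr17:35149704-35149728, minus strand): gggtcgtcacGGACTcccccatctg
Elavl1 (3′ UTR, chr8:4289255-4289279, minus strand): gacggtggtgGGACTgaagcatgct
The motif began 59 bases before the last coding base in Fxr1, 93 in Rbmx, 226 in Fxr2 and 247 in Prrc2a. It began 313 bases after it in Fmr1, 334 in Elavl1 and 442 in Hnrnpc. A match is a description of these letters and not a mapped m6A site.

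The retina Ythdf1 IP was where the 8 transcripts spread most. Hnrnpa2b1 and Fxr1 were lower in the IP than in the retina input, and Prrc2a was the one furthest above it. No member's IP libraries overlapped the inputs, with 2 libraries on each side. The share of all genes without overlap was not counted, so this is not a trait shown to be particular to the 8. With all 12 libraries, 2 of 8 were called lower (edgeR quasi-likelihood test, adjusted p under 0.05) and 0 of 8 higher, beside 5.23% of all genes called lower and 3.57% called higher. At an unadjusted p under 0.05 there were 5 of 8, against 4944 of the 18458 genes tested. The median log2 fold change of the 8 was -1.45, with a median of 0 over all genes tested. The fit without the deviant cortex input had 5 of 8 lower (Hnrnpa2b1, Hnrnpc, Rbmx, Fmr1 and Fxr1) and 1 higher (Prrc2a), beside 13.4% and 13.7% of all genes. The 6 retina libraries fitted alone gave the same 5 lower and 1 higher, beside 20.3% and 17.3%. A fold change over input compares a transcript's share of the RNA in both libraries. Where the inputs of the 2 tissues are compared, fewer cells of a type and less RNA per cell cannot be told apart in bulk tissue.

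**Figure D1:**
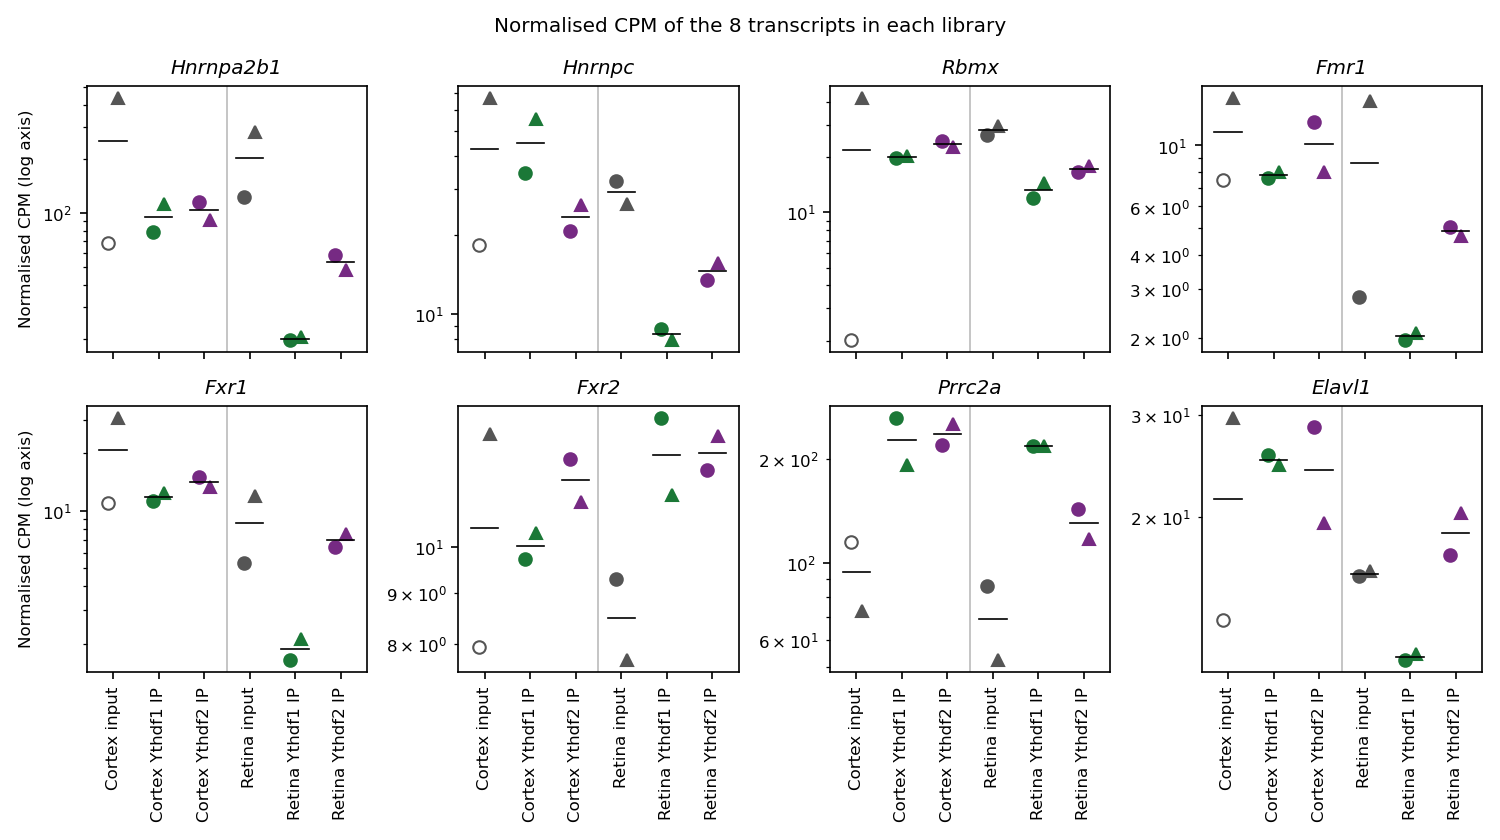
Normalised CPM (library-scaled counts, log axis, 1 panel per gene with its own range) in each of the 12 libraries, by tissue and by input or IP. Circles are replicate 1, triangles replicate 2, lines the group mean, and the open circle is the library labelled cortex input replicate 1. Prrc2a lies above both inputs of its tissue in all 8 IP libraries, and Hnrnpa2b1 lies lowest in the retina Ythdf1 IPs.

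Hnrnpa2b1 stood at 123 and 283 normalised CPM in the retina inputs, 19.8 and 20.4 in the Ythdf1 IPs, with 58.5 and 48.2 for Ythdf2. Both Ythdf1 IPs lay far below both inputs and below both Ythdf2 IPs, and all 4 retina IP libraries were under the lower input. Its log2 fold change in the Ythdf1 IP was -3.34 ± 0.82 (SE; adjusted p = 0.0310), a 10.1-fold lower share, and -3.33 ± 0.43 (adjusted p = 8.34e-05) without the deviant cortex input. In the cortex it stood at 68.1 and 436 in the inputs, 78.5 and 112 in the Ythdf1 IPs, with 116 and 91.5 for Ythdf2. The 2 cortex inputs were further apart than any IP from another, with every IP between them.

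Hnrnpc (chr14:52073377-52104028), whose protein packages nascent nuclear transcripts, stood at 32.2 and 26.3 normalised CPM in the retina inputs, 8.75 and 7.94 in the Ythdf1 IPs, with 13.4 and 15.6 for Ythdf2. Inputs, Ythdf2 IPs and Ythdf1 IPs formed 3 steps without overlap, an order whose share among all genes was not counted. Its log2 fold change in the retina Ythdf1 IP was -1.81 ± 0.58 (adjusted p = 0.0733), and it passed the test without the deviant cortex input (-1.80 ± 0.33, adjusted p = 0.000972). The cortex inputs of Hnrnpc were 18.3 and 66.6, its Ythdf1 IPs 34.5 and 55.6, and its Ythdf2 IPs 20.8 and 26.1. All 4 cortex IP values lay between the inputs.

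Rbmx (chrX:57383530-57393036), the X-linked hnRNP G, stood at 26.4 and 29.6 normalised CPM in the retina inputs, 12 and 14.4 in the Ythdf1 IPs, with 16.7 and 17.9 for Ythdf2. Replicates were close in all 3 retina groups and the IPs were below the inputs. The log2 fold change in the Ythdf1 IP was -1.09 ± 0.86 (adjusted p = 0.441), and -1.08 ± 0.29 (adjusted p = 0.0112) without the deviant cortex input. Its cortex inputs were the most uneven of the 8, at 2.02 and 42.0, while the Ythdf1 IPs were at 19.8 and 20.2 and the Ythdf2 IPs at 24.5 and 22.8. The value of 2.02 rested on 17 counts.

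**Figure D2:**
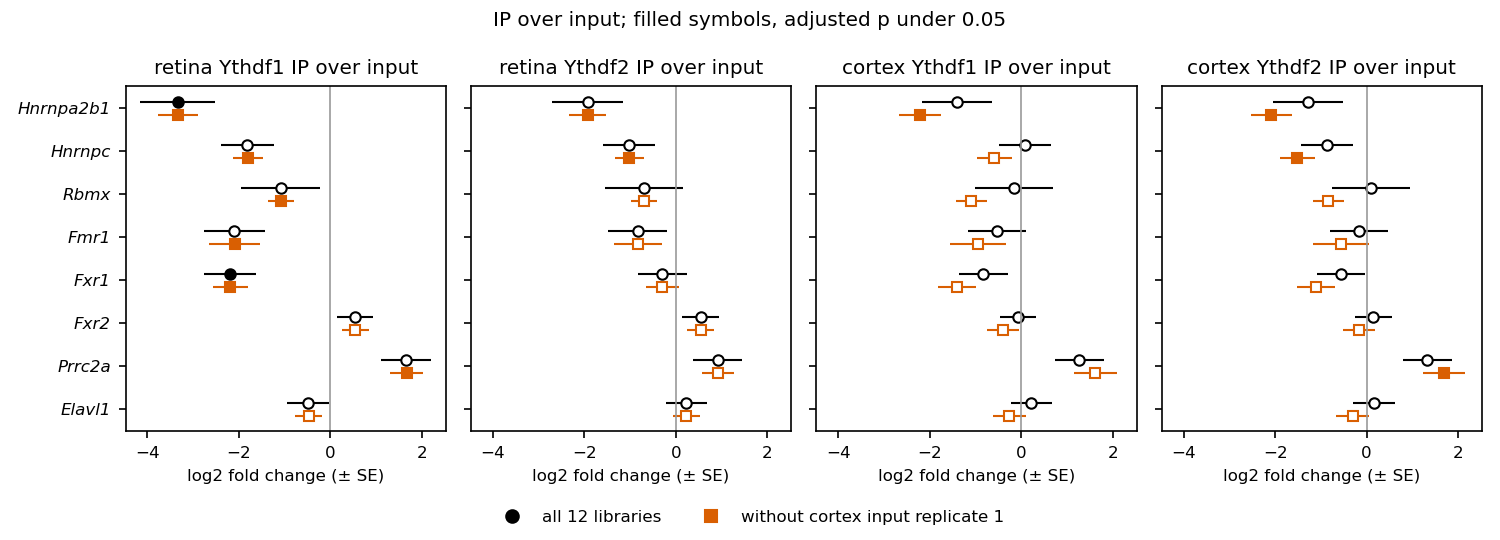
Log2 fold change of each IP over the input of its tissue, with standard errors as bars, for the 8 genes in 4 panels. Black circles are the fit to 12 libraries, orange squares the fit without cortex input replicate 1, and filled symbols passed an adjusted p of 0.05. Hnrnpa2b1 lies left of 0 and Prrc2a right of 0 in all 4 panels.

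Fmr1 (chrX:68678541-68717963) encodes FMRP itself. Its retina inputs were 2.82 and 14.5 normalised CPM, its Ythdf1 IPs 1.96 and 2.08, and its Ythdf2 IPs 5.06 and 4.68. Both Ythdf1 IPs were under both inputs, but the inputs were 81 and 411 counts and differed more from each other than the lower input did from the IPs. The log2 fold change in the Ythdf1 IP was -2.09 ± 0.67 (adjusted p = 0.0724), and -2.09 ± 0.55 (adjusted p = 0.0117) without the deviant cortex input. Without retina input replicate 2 it came to -0.47. Cortex values of Fmr1 were 7.47 and 14.9 in the inputs, 7.64 and 7.98 in the Ythdf1 IPs, with 12.2 and 7.98 for Ythdf2, all within the range of the inputs.

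Fxr1 (chr3:34019943-34070322) encodes the FMRP paralog needed in muscle and heart development. It stood at 5.32 and 11.9 normalised CPM in the retina inputs, 1.64 and 2.12 in the Ythdf1 IPs (51 and 56 counts), with 6.47 and 7.57 for Ythdf2. The Ythdf1 IPs lay under everything else, while the Ythdf2 IPs lay between the inputs. In the Ythdf1 IP it fell by 2.20 on the log2 scale (SE 0.56, adjusted p = 0.0351), a 4.58-fold lower share, and by 2.19 (SE 0.39, adjusted p = 0.000737) without the deviant cortex input. Its cortex inputs were 11.0 and 30.5, the Ythdf1 IPs 11.2 and 12.3, and the Ythdf2 IPs 15.1 and 13.3. Exons of Fxr1 share 178 bases, 2.72% of its exon length, with Dnajc19 on the opposite strand, and the strand setting of the counting is not given in the sources used here.

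Fxr2 (chr11:69632990-69653297), the third member of that family, had the opposite sign in the retina Ythdf1 IP. Its retina inputs were 9.28 and 7.71 normalised CPM, its Ythdf1 IPs 13.4 and 11.3, and its Ythdf2 IPs 11.9 and 12.9. All 4 retina IP libraries were above both inputs, but the log2 fold change of 0.54 ± 0.40 in the Ythdf1 IP did not pass the test (adjusted p = 0.404, and 0.185 without the deviant cortex input). Cortex values ran from 7.95 to 12.9 in the inputs and from 9.71 to 12.2 in the IPs. By the authors' FPKM (fragments scaled to gene length and library depth, a per-length level), Fxr2 was at 3.04 and 1.13 times Fxr1 in the retina inputs, 14.9 and 9.45 times in the Ythdf1 IPs, and 3.23 and 3.01 times in the Ythdf2 IPs. The order in retina input replicate 2 depended on the length used: counts per kilobase of the longest transcript were 90.5 and 74.2 for Fxr2 and 50.8 and 112 for Fxr1 in the inputs. In the Ythdf1 IPs they were 141 and 101 for Fxr2 and 16.9 and 18.6 for Fxr1.

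The calls on Hnrnpa2b1 and Fxr1 in the retina Ythdf1 IP depended on single libraries. Leaving out any 1 of 8 libraries ended both: either retina input, either retina Ythdf1 IP, either retina Ythdf2 IP, cortex Ythdf1 IP replicate 2 or cortex Ythdf2 IP replicate 1. The adjusted p was then 0.0539 to 0.252 for Hnrnpa2b1 and 0.0550 to 0.285 for Fxr1, and the fold changes kept their sign (-3.81 to -2.61 and -2.66 to -1.49). Leaving out cortex input replicate 2, the same 5 transcripts as above were called lower and Prrc2a higher, beside 16% and 10.3% of all genes. Fmr1 was called lower with retina input replicate 1 left out (-2.83, adjusted p = 0.0428).

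Prrc2a (chr17:35149076-35164897) was above input in both tissues and with both antibodies. Its retina inputs were 85.8 and 52.4 normalised CPM, its Ythdf1 IPs 217 and 219, and its Ythdf2 IPs 143 and 118. Both IPs were above both inputs, and the Ythdf1 IPs above the Ythdf2 IPs. In the cortex the inputs were 115 and 72.9, the Ythdf1 IPs 262 and 192, and the Ythdf2 IPs 219 and 252. All 8 IP libraries were above both inputs of their tissue, which held for no other member. How many of all genes share this was not counted. Its fold changes over input lay between percentiles 81.7 and 89.1 of all genes tested. The log2 fold change was 1.66 ± 0.55 in the retina Ythdf1 IP (adjusted p = 0.0787), a 3.16-fold higher share, and 1.67 ± 0.36 (adjusted p = 0.00293) without the deviant cortex input.

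Elavl1 (chr8:4285382-4325413) had the smallest fold change of the 8 in the retina Ythdf1 IP. Its retina inputs were 15.8 and 16.1 normalised CPM, its Ythdf1 IPs 11.3 and 11.6, and its Ythdf2 IPs 17.2 and 20.3. The Ythdf1 IPs were just under and the Ythdf2 IPs just over the inputs. The log2 fold change of -0.48 ± 0.46 in the Ythdf1 IP did not pass the test (adjusted p = 0.532, and 0.270 without the deviant cortex input). Cortex values were 13.3 and 29.6 in the inputs, 25.6 and 24.6 in the Ythdf1 IPs, with 28.6 and 19.6 for Ythdf2. Exons of Elavl1 share 204 bases, 1.97% of its exon length, with Ccl25 on the opposite strand.

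In the retina Ythdf2 IP, 0 of 8 were called in either direction, beside 1.76% of all genes called lower and 0.282% higher. At an unadjusted p under 0.05 there was 1 of 8, against 3039 of all genes. Hnrnpa2b1 was again the lowest at -1.93 ± 0.77 (adjusted p = 0.244) and Prrc2a the highest at 0.92 ± 0.54 (adjusted p = 0.425). Between them lay Hnrnpc at -1.01, Fmr1 at -0.83, Rbmx at -0.70, Fxr1 at -0.29, Elavl1 at 0.23 and Fxr2 at 0.55. Fmr1 and Fxr1 overlapped their inputs, and the other 6 did not. Among these 6 were Elavl1 and Rbmx, far from passing the edgeR test (adjusted p = 0.878 and 0.751). The share of all genes without overlap was not counted here either. Hnrnpa2b1 (-1.93, adjusted p = 0.00487) and Hnrnpc (-1.01, adjusted p = 0.0492) were called lower without the deviant cortex input, 2 of 8 beside 7.64% of all genes, and 0 higher, beside 5.82%. The same pair was called without cortex input replicate 2 (adjusted p = 0.00317 and 0.0357), beside 8.26% of all genes called lower and 4.49% higher. It was called once more in the 6 retina libraries alone, beside 10.7% lower and 9.55% higher.

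Among the markers of other cells, the summed level of the 8 blood and vessel genes was 280 and 271 protein-coding CPM in the retina inputs, 1263 and 1285 in the Ythdf1 IPs, with 749 and 781 for Ythdf2. Kdr, the VEGF receptor, held most of these counts (997 and 1037 in the inputs, 4608 and 3914 in the Ythdf1 IPs), while the endothelial genes Cdh5 and Pecam1 stayed at or under 11 counts in every retina library and Hba-a1 at or under 14. Kdr rose in the retina Ythdf1 IP (2.06 ± 0.52, adjusted p = 0.0341), and the endothelial gene Cldn5 was at 101 and 57 counts in the inputs, 287 and 210 in the Ythdf1 IPs, with 49 and 46 for Ythdf2. Between 4 and 7 of the 8 were detected per retina library, and Hbb-bs and Hbb-bt were at 0 in 4 and 5 of the 6. The 7 cortical neuron markers summed to 408 and 341 in the inputs, 1040 and 1065 in the Ythdf1 IPs, with 483 and 516 for Ythdf2, and 5 or 6 of 7 were detected, Neurod6 being at 0 in every retina library. Tubb3 carried most of that sum (1379 and 874 counts in the inputs, 3687 and 3079 in the Ythdf1 IPs), while Dcx was at 134 and 379 counts in the inputs and 87 and 97 in the Ythdf1 IPs. The other marker lists showed no such rise. Retina markers summed to 2753 and 2038 protein-coding CPM in the inputs and 2851 and 2879 in the Ythdf1 IPs. Cortical progenitor markers were at 1543 and 2137 in the inputs and 1511 and 1701 in the Ythdf1 IPs. Mature brain markers were at 323 and 441, and at 371 and 448. The part of any of these markers in the results on the 8 transcripts was not tested.

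In the cortex, 0 of 8 were called in the Ythdf1 IP, beside 0.00542% of all genes called higher and 0 lower, and 0 of 8 in the Ythdf2 IP, beside 0.0108% called higher and 0 lower. In each, 1 of 8 had an unadjusted p under 0.05, against 2884 and 3562 of all genes. That 1 was Prrc2a both times, at 1.27 ± 0.54 (adjusted p = 0.287) in the Ythdf1 IP and 1.33 ± 0.54 (adjusted p = 0.212) in the Ythdf2 IP. Hnrnpa2b1 had the lowest value in both, -1.40 ± 0.76 and -1.28 ± 0.76 (adjusted p = 0.410 and 0.384). The other 6 lay between -0.86 and 0.22. All but Prrc2a overlapped the cortex inputs, and the share of all genes that did so was not counted.

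Without the deviant cortex input the cortex comparison rested on 1 input library, whose spread is then taken to be like that of the other groups. Hnrnpa2b1 was lower in both cortex IPs, at -2.22 ± 0.46 (adjusted p = 0.0143) in the Ythdf1 IP and -2.08 ± 0.46 (adjusted p = 0.0119) in the Ythdf2 IP. Hnrnpc was lower in the Ythdf2 IP (-1.51 ± 0.37, adjusted p = 0.0219), and Prrc2a higher there (1.69 ± 0.47, adjusted p = 0.0374). That made 1 of 8 lower and 0 higher in the Ythdf1 IP, beside 2.17% and 1.55% of all genes, and 2 of 8 lower and 1 of 8 higher in the Ythdf2 IP, beside 5% and 2.48%. With cortex input replicate 2 left out in its place, Rbmx was called higher in both IPs (3.25 and 3.58) and Hnrnpc in the Ythdf1 IP (1.23), 2 of 8 beside 14% and 1 of 8 beside 16.3% of all genes in the Ythdf1 and Ythdf2 IP. No member was called lower then, beside 11.1% and 11.9%. All 8 were above 0 in both cortex IPs in that fit, Hnrnpa2b1 included (0.42 and 0.63, adjusted p = 0.559 and 0.369), so its sign also turned with the choice of input. Prrc2a was above 0 in the Ythdf1 IP with either input (1.62 and 0.92).

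The antibodies were then compared with each other. In the retina 0 of 8 differed between Ythdf1 and Ythdf2 IP, beside 0 of all genes by edgeR, although 2211 genes and 1 of 8 members had an unadjusted p under 0.05. That member was Fxr1, at -1.90 ± 0.56 (adjusted p = 0.229). Fxr1 (-1.90, adjusted p = 0.00977) and Hnrnpa2b1 (-1.40, adjusted p = 0.0484) were lower in the Ythdf1 IP without the deviant cortex input, 2 of 8 beside 3.88% of all genes called lower and 2.14% higher. Without cortex input replicate 2 both were called as well (adjusted p = 0.00604 and 0.0299), beside 4.85% of all genes called lower and 1.41% higher. The 6 retina libraries alone called 2 of 8 lower, beside 6.56% lower and 2.57% higher. In the cortex 0 of 8 and 0 of all genes differed (739 genes and 0 members at an unadjusted p under 0.05), and Hnrnpc had the largest difference, 0.94 ± 0.57. The fit without the deviant cortex input called 143 genes there and 0 of 8, with Hnrnpc at 0.92 (adjusted p = 0.315).

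The difference in enrichment between the tissues, retina minus cortex, called 0 of 8 for Ythdf1, beside 0.00542% of all genes, and 0 of 8 for Ythdf2, beside 0.0325%. At an unadjusted p under 0.05 there were 1 and 0 of 8, against 3064 and 2080 of all genes. The 1 was Hnrnpc under Ythdf1 at -1.89 ± 0.80 (adjusted p = 0.271), with Hnrnpa2b1 close by at -1.93 ± 1.07 (adjusted p = 0.382). A call in the retina and none in the cortex was thus not shown to be a difference between the tissues. Leaving out cortex input replicate 2, 5 of 8 were called lower for Ythdf1, beside 16.9% of all genes lower and 8.68% higher, and 2 of 8 for Ythdf2, beside 14% and 7.59%. There were 0 of 8 for either antibody without the deviant cortex input, beside 2.41% lower and 1.11% higher for Ythdf1 and 0.473% and 0.444% for Ythdf2.

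Between the inputs themselves 0 of 8 differed, beside 4.01% of all genes called lower and 3.51% higher. At an unadjusted p under 0.05 there was 1 of 8, against 4893 of all genes. Fxr1 was at -1.28 ± 0.54 in retina over cortex (adjusted p = 0.156). Fxr1 (-1.85, adjusted p = 0.00537) and Hnrnpc (-1.21, adjusted p = 0.0327) were lower in the retina without the deviant cortex input, 2 of 8 beside 11.1% of all genes lower and 8.82% higher. Without replicate 2, Hnrnpa2b1 (1.64) and Rbmx (3.87) were called higher in the retina, beside 17% of all genes higher and 11.9% lower.

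DESeq2, run on the same counts, called more genes throughout. Its shares are of the genes to which it gave an adjusted p, from 14163 to 17384 by comparison. In the retina Ythdf1 IP it called Hnrnpa2b1, Hnrnpc, Fmr1 and Fxr1 lower and Prrc2a higher, 5 of 8 beside 21% of those genes in either direction. It called 1 of 8 in 3 comparisons: Hnrnpa2b1 lower in the retina Ythdf2 IP (beside 9.9%), Prrc2a higher in the cortex Ythdf2 IP (beside 15.2%) and Fxr1 lower in the retina Ythdf1 than Ythdf2 IP (beside 4.25%). It called 0 of 8 in the cortex Ythdf1 IP (beside 9.06%), between the cortex IPs (beside 0.508%), in the tissue difference for Ythdf1 (beside 7.37%) and Ythdf2 (beside 3.11%), and between inputs (beside 19.6%).

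Other genes of the same families were taken from lists of relatives and partners. The 25 other hnRNP genes had a median of -1.63 in the retina Ythdf1 IP, where 3 of 25 fell and 0 rose, beside 5.23% and 3.57% of all genes. Ptbp2 was named after its value was seen. The 3 were Pcbp2, a poly(C) binding protein (-3.47 ± 0.68, adjusted p = 0.0174), Hnrnph2 (-2.51 ± 0.65, adjusted p = 0.0362) and Ptbp2, the neuronal splicing repressor (-2.61 ± 0.69, adjusted p = 0.0384). Once the deviant cortex input was left out, 19 of 25 were called lower and 0 higher, beside 13.4% and 13.7% of all genes, and the median was -1.62. In the retina Ythdf2 IP 0 of 25 passed (median -0.85), and 6 fell and 1 rose without that library, beside 7.64% and 5.82%. The cortex IPs called 0 of 25 each, with medians of -0.55 and -0.47, and 4 and 8 of 25 lower without it, beside 2.17% and 5%.

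**Figure D3:**
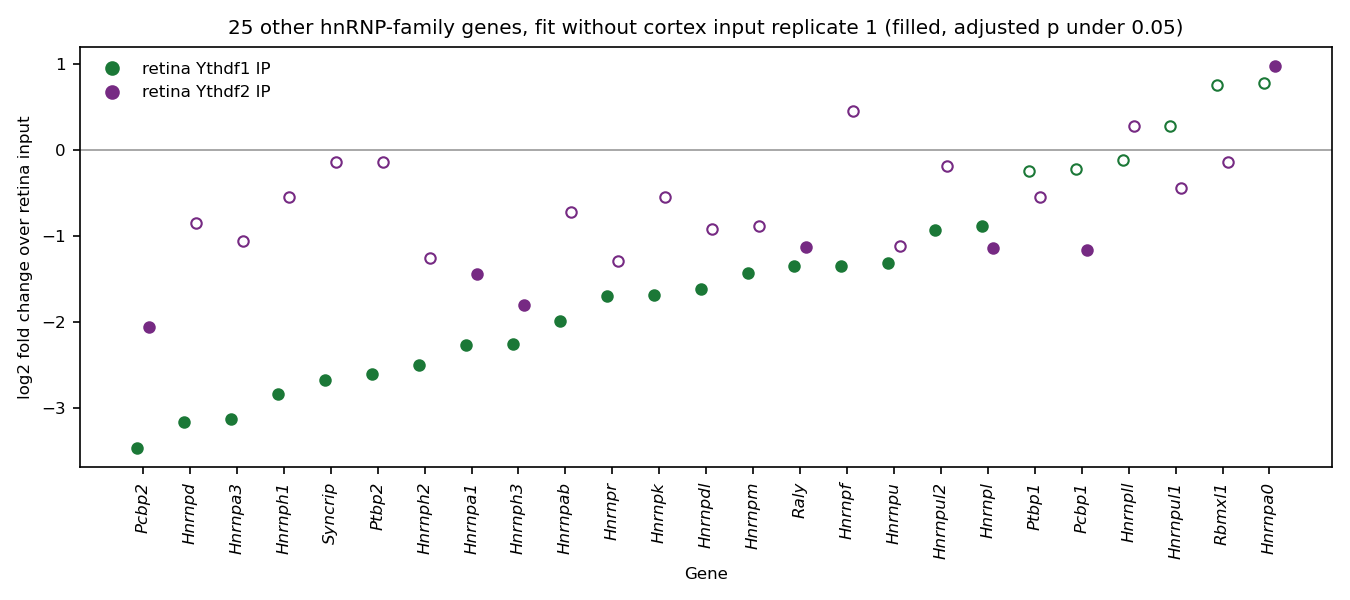
Log2 fold change over retina input of the 25 other hnRNP-family genes, in the fit without cortex input replicate 1, ordered by the Ythdf1 IP. Green is the Ythdf1 IP, purple the Ythdf2 IP, and filled points passed an adjusted p of 0.05. In the Ythdf1 IP, 19 of 25 were called lower and 0 higher.

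The other lists held 1 call in the IPs with all 12 libraries. Of the 8 YTH and Igf2bp readers, 0 passed in any IP with all 12 libraries, and their median in the retina Ythdf1 IP was 0.42. Leaving out the deviant cortex input, 1 of these 8 was higher and 2 lower there, and of the writers and erasers 4 of 11 were higher and 2 lower, beside 13.7% of all genes higher and 13.4% lower. Of the 11 writers and erasers, 1 passed: Alkbh5, an m6A demethylase, rose by 2.16 ± 0.46 (adjusted p = 0.0360) in the retina Ythdf2 IP, and by the same 2.16 (adjusted p = 0.000684) without the deviant cortex input. Of the 15 partners of FMRP, 0 passed in any IP, and the retina Ythdf1 median was -0.25. Leaving out that input, 2 of 15 were higher there and 0 lower. The 5 paralogs of Elavl1 and Prrc2a had 0 calls with all libraries. Without the deviant cortex input the list had calls in both directions in the retina Ythdf1 IP, more of them lower. All genes had calls in both directions there too. The median of the 5 in the retina Ythdf1 IP was -1.44 with and without the deviant cortex input. Without it, Prrc2b, named after its value was seen like Prrc2c, was at 1.07 and Prrc2c at -1.64 there. These 2 paralogs of Prrc2a thus differed in sign, while the list as a whole lay below 0 by its median.

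What the rule did not use was the make-up of the transcripts. Prrc2a has the longest of the 8 longest coding transcripts, 6888 bases in 31 exons, with a GC content of 60.6% and 11 GGACT, all in the coding sequence. Hnrnpa2b1 has the shortest, 1728 bases with 43.9% GC and 0 GGACT. The medians over 14169 protein-coding genes tested are 3241 bases, 50.3% GC and 3 GGACT, and 7.09% of those genes have none. The 6 members below 0 in the retina Ythdf1 IP all had a GC content under that median, from 39.2% in Fmr1 and 39.4% in Fxr1 to 45.7% in Elavl1. Fxr2 and Prrc2a, the 2 above 0, were at 58.5% and 60.6%. Length did not divide the 8 this way. Fmr1 (4409 bases) and Elavl1 (5743 bases) were longer than the median and lay below 0, while Fxr2 (2951 bases) was shorter and lay above it. Motif number did: Fxr2 with 5 GGACT and Prrc2a with 11 had the most, and the 6 below 0 had from 0 to 4. Cut at the median number of 3 it did not, as Rbmx and Elavl1, with 4 GGACT each, were over that median and below 0. Over all annotated coding transcripts of a gene, the number ran from 0 to 2 in Hnrnpc and Fxr1. It ran from 1 to 4 in Rbmx and Elavl1, and did not vary in the rest.

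**Figure D4:**
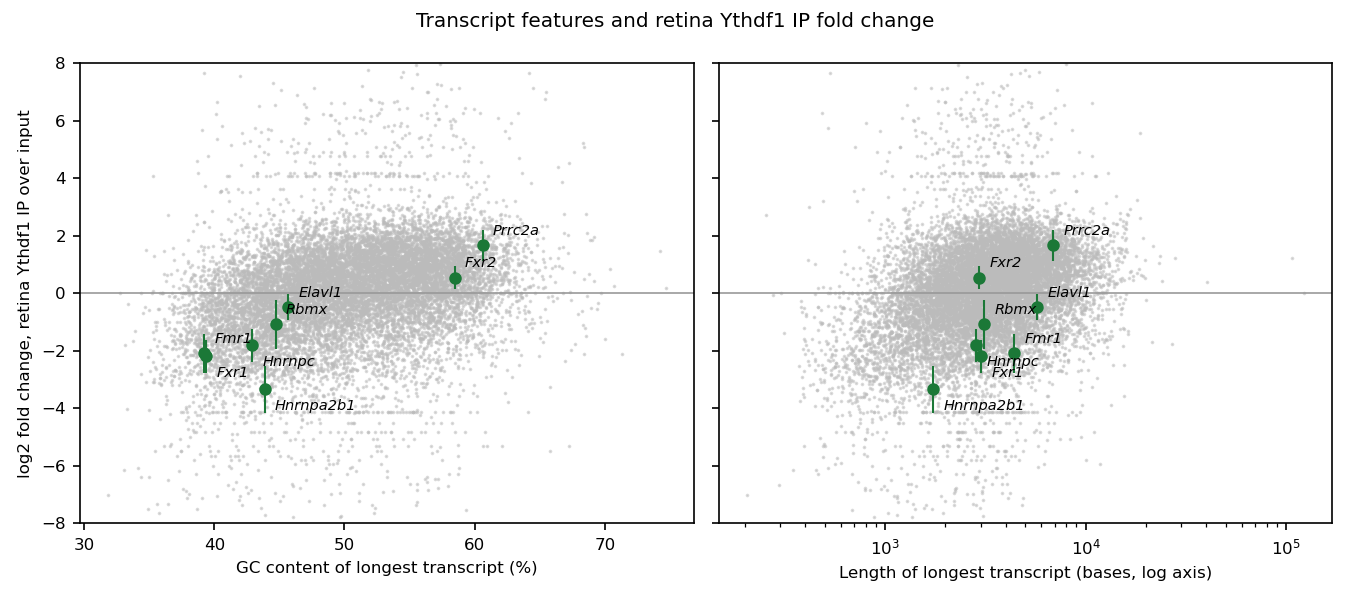
Log2 fold change in the retina Ythdf1 IP over input against GC content (left) and length (right, log axis) of the longest coding transcript. Grey points are 14146 protein-coding genes (23 lie outside the axis), and green points with standard error bars are the 8 genes. The 6 genes below 0 lie under 46% GC, and Fxr2 and Prrc2a above 58%.

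Across all genes the same features moved with the fold change. In the retina Ythdf1 IP, Spearman's rho across 14169 genes, which are not independent and share the libraries, was 0.342 with GC content, 0.322 with length, 0.352 with the number of GGACT and 0.166 with that number per kilobase. In the retina Ythdf2 IP it was 0.0769 with GC content and 0.429 with length, and in the cortex Ythdf1 IP 0.184 and 0.0468. Of the 3543 genes with the lowest GC content, 10.1% were called lower and 0.96% higher in the retina Ythdf1 IP, against 1.72% and 7.57% of the 3542 with the highest. The 1005 genes without GGACT had a median of -0.99 there and the 13164 with at least 1 a median of 0.21. The part of GC content, length and motif number in the values of the 8 transcripts was not tested.

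Within a library the 8 transcripts can be ordered by the authors' FPKM. In the retina inputs Hnrnpa2b1 was first at 13.0 and 32.4 FPKM, followed by Hnrnpc (7.79 and 6.92), Prrc2a (7.80 and 5.17) and Rbmx (4.23 and 5.16). Fxr2 (1.69 and 1.53), Elavl1 (1.05 and 1.17), Fxr1 (0.557 and 1.36) and Fmr1 (0.207 and 1.20) came after. Hnrnpc and Prrc2a overlapped, as did Elavl1, Fxr1 and Fmr1. Prrc2a was first in 9 of 12 libraries, including all 8 IPs, and Hnrnpa2b1 in 3, which were inputs. Prrc2a was at 0.601 and 0.159 times Hnrnpa2b1 in the retina inputs, 9.56 and 9.32 times in the Ythdf1 IPs, and 2.11 and 2.11 times in the Ythdf2 IPs. Which gene length the FPKM rest on is not given, and counts per kilobase of the longest transcript put Hnrnpa2b1 first in 10 of 12 libraries and Prrc2a in 2, the retina Ythdf1 IPs. Fmr1 was 7th or 8th in 12 of 12 libraries by FPKM and in 11 by counts per kilobase.

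**Figure D5:**
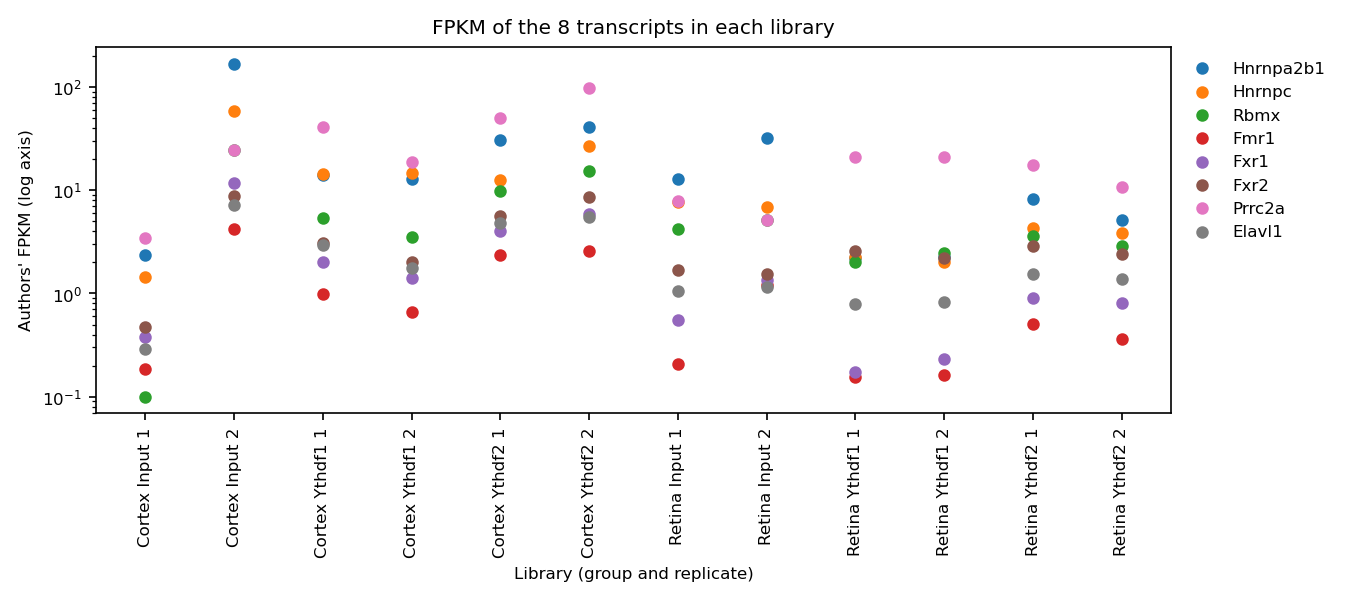
The authors' FPKM (log axis) of the 8 genes in each library. Prrc2a is first in 9 of 12 libraries and Fmr1 is 7th or 8th in all 12.

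Likeness across the 12 libraries was taken as Pearson's r of log2 CPM against 5926 protein-coding genes, a description in which all points share the libraries and their scaling. Prrc2a was most like Ube2o (0.982) and Plxna1 (0.968). Fmr1 was most like Myef2 (0.972), Ddx3x (0.969) and Rbm39 (0.968), and Fxr1 most like Kif2a (0.973), Bclaf1 (0.971) and Ubxn4 (0.971). Hnrnpa2b1 was most like Denr (0.974), Pbdc1 (0.961) and Eif2s1 (0.961), Hnrnpc most like Srp72 (0.977), Tpm4 (0.943) and Ruvbl1 (0.941), and Rbmx most like Tyms (0.98), Lhx9 (0.976) and Rrm2 (0.972). Elavl1 was most like Ctps (0.957), Dcx (0.956) and Mark3 (0.934), and Fxr2 had the lowest values, with Flii (0.908) and Mars (0.905). Without the deviant cortex input the closest gene stayed the same for Prrc2a, Fmr1, Hnrnpc and Elavl1. Among the 8, Fmr1 and Fxr1 were closest to each other (r = 0.94 over 12 libraries), while Fxr2 was at -0.26 with Fmr1 and -0.19 with Fxr1, and Prrc2a at -0.63 with Hnrnpa2b1.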

How the data were processed

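RIP-seq was measured in 12 libraries. Per the submitters' processing notes, reads were mapped with STAR 2.5 and counted with HTSeq on GRCm38. The counting's strand setting and gene models were not given in the sources used here. The authors deposited raw read counts per gene (52550 genes) and FPKM values. Of these genes, 52403 matched GENCODE M21 and 147 did not. Genes were filtered with edgeR's filterByExpr (minimum count 10, minimum total 15), scaled by TMM, and tested with 1 quasi-likelihood model over 6 groups (edgeR 4.0.16, limma 3.58.1, R 4.3.3; 6 residual degrees of freedom), two-sided, with Benjamini-Hochberg adjustment over all 18458 genes and calls at an adjusted p under 0.05. The SE was taken as |log2 fold change|/sqrt(F). The deposited FPKM ordered genes within a library and served limma fits as an alternative. DESeq2 1.42.0 was another. The model was run on simulated data with the same spread for every gene and no deviant library. Such data cannot show how it performs on these libraries. Named genes were the 8 members, up to 2 called genes per list and direction with the smallest p, and the 3 genes most like each member, of which some are not reported here (Ptbp2, Prrc2b, Prrc2c and the marker genes Kdr and Cldn5 were named after their values were seen). The members and lists were chosen with earlier results of these data known. Near-identical copies (at least 90% identity over 200 bases) held at most 1.26% as many counts as a member. Counts include PCR duplicates, and the SE and p-values rest only on the spread between these libraries.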

Additional observations from a re-analysis of the deposited data

How the results depend on the processing

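In the retina Ythdf1 IP every member kept its sign in all 12 fits that left out 1 library and in the 9 other settings. Calls moved more. Library totals in place of TMM called 0 members lower, limma on log2(FPKM + 1) and on log2(FPKM + 0.1) 0 each, DESeq2 4 lower and 1 higher, and the 6 retina libraries alone 5 lower and 1 higher. In the retina Ythdf2 IP DESeq2 called 1 member lower and the 6 libraries alone 2. In Ythdf1 over Ythdf2 IP in the retina they called 1 and 2 lower, and DESeq2 called 1 member higher in the cortex Ythdf2 IP.

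With single libraries left out, the most members were called, lower or higher, when 1 of the 2 cortex inputs was missing. In every comparison these were also the fits that called the most of all genes. They leave 1 library in the cortex input group. The members called in them are given beside the shares of all genes in the Results. A larger number of members called in these fits therefore does not set the members apart from other genes.

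Signs turned mostly in the cortex, where the 2 inputs differ. With 1 library left out, the cortex Ythdf1 log2 fold change ranged from -2.22 to 0.42 for Hnrnpa2b1, -0.59 to 1.23 for Hnrnpc, -1.09 to 3.25 for Rbmx, -0.95 to 0.0026 for Fmr1, -1.40 to 0.032 for Fxr1, -0.39 to 0.27 for Fxr2 and -0.26 to 0.86 for Elavl1. The cortex Ythdf2 values ranged from -2.08 to 0.63 for Hnrnpa2b1, -1.51 to 0.39 for Hnrnpc, -0.83 to 3.58 for Rbmx, -0.57 to 0.45 for Fmr1, -1.11 to 0.39 for Fxr1, -0.16 to 0.58 for Fxr2 and -0.31 to 0.88 for Elavl1. In the retina Ythdf2 IP Fmr1 ranged from -1.57 to 0.79 and Fxr1 from -0.76 to 0.40. With library totals, which shift the median of all genes by -0.58 in the cortex Ythdf1 IP, 0.69 in the cortex Ythdf2 IP and -1.27 between them, Hnrnpc came to -1.08 and Elavl1 to -0.69 in the cortex Ythdf1 IP, Fmr1 to 0.18 in the cortex Ythdf2 IP, and Hnrnpc to -0.46 between the cortex IPs. With no filter Hnrnpc came to -0.0011 in the cortex Ythdf1 IP. With FPKM + 1 and FPKM + 0.1 Rbmx came to 0.014 and 1.00 in the cortex Ythdf1 IP, and Fxr2 to 0.20 with FPKM + 0.1. In the cortex Ythdf2 IP these 2 settings gave 0.61 and 0.80 for Hnrnpa2b1, 0.67 and 0.94 for Hnrnpc, 0.48 and 1.22 for Fmr1, and 0.49 and 1.06 for Fxr1, and between the cortex IPs -0.33 and -0.34 for Hnrnpc. The cause was not tested.

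Of all genes, 966 were called lower and 659 higher in the retina Ythdf1 IP, against 0 with library totals, 3583 with DESeq2, 55 and 45 with FPKM + 1 and + 0.1, 5412 in the 6 libraries alone, and 0 to 5505 with 1 library left out. In the retina Ythdf2 IP 325 were called lower and 52 higher, against 2, 1579, 39 and 30, 2910 and 0 to 2730 in the same order, and 852 with no filter. In the cortex Ythdf1 IP 1 was called, against 5, 1348, 6 and 4, 0 and 1 to 5011, with 1108 under no filter and 2 with RLE size factors. In the cortex Ythdf2 IP 2 were called, against 4, 2214, 182 and 38, 0 and 1 to 5621, with 1366 under no filter.

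The groups share replicate numbers, but the labels do not say what a number marks, and deviations of same-numbered libraries correlated between -0.076 and 0.058. With the replicate number as a block, 1197 genes were called in the retina Ythdf1 IP, 250 in the retina Ythdf2 IP and 1 in the cortex Ythdf2 IP, Rbmx came to 0.12 in the cortex Ythdf1 IP, and Hnrnpa2b1 (adjusted p = 0.0410) and Fxr1 (adjusted p = 0.0401) were the members called, both lower in the retina Ythdf1 IP.

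With 2 libraries a group, 1 input library decides most cortex values. Counts of 51 to 56 for Fxr1 and 55 to 61 for Fmr1 in the retina Ythdf1 IPs limit precision there.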
